A study of Danio rerio with 2 samples.

Results

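The ZP2-type egg coat genes of zebrafish were taken as the 7 genes with the symbols zp2.1, zp2.2, zp2.3, zp2.5, zp2.6, zp2l1 and zp2l2, matched by symbol without regard to case among the 24539 Ensembl genes of the deposited table. Each symbol belonged to 1 identifier, and all 7 were measured. They were compared between ovary and testis, the organs of wild-type (WT) adults that received no treatment named in the labels. A single RNA library stood for each organ, made from the pooled organs of 3 adults and sequenced on the BGISEQ-500 platform; the labels name neither strain nor exact age. By its title, the study asked which genes and pathways are sex-biased. Whole organs were used, so more cells of a type and more RNA per cell cannot be told apart.

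Zona pellucida (ZP) proteins are secreted by the growing oocyte and polymerise through a shared ZP domain into the coat that surrounds the egg, which in fish is often called the chorion. The coat has an opening, the micropyle, through which sperm reach the egg, and it hardens after the egg is laid and activated. In some other teleosts egg coat proteins are made in the liver under the control of oestrogen and carried to the ovary in the blood, whereas in zebrafish the ovary is the known site. Zebrafish carry several copies of the ZP2 type, part of them as a tandem array.

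Values are FPKM, fragments scaled to gene length and to the fragments mapped in the library, so levels of genes of different length can be compared within a library. The deposited values sum to 572635 FPKM in ovary and 562394 FPKM in testis, and the number of reads behind them is unknown. The smallest value in the table, 0.01 FPKM, was held by 3540 genes in ovary and 430 in testis and was read as standing for 0. The labelled organs were checked against marker genes. The 5 measured oocyte markers ranged from 26.6 to 928 FPKM in ovary and from 1.27 to 9.86 in testis. The 3 Sertoli cell markers ranged from 0.80 to 6.62 FPKM in ovary and from 160 to 835 in testis, and the 3 markers of meiosis and sperm from 0.07 to 5.88 in ovary and from 157 to 457 in testis. No organ has a second library, so the spread between replicates is unknown and no difference between the organs was tested. Genes were classed by size alone: a gene counted as higher in an organ where it reached at least 1 FPKM there and the organs lay at least 2-fold apart on the log2(FPKM + 1) scale.

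All 7 ZP2-type genes were higher in ovary by this rule, in which 16.6% of 19053 genes were higher in ovary and 45.1% higher in testis. Their median log2 ratio of ovary to testis was 8.66, against a median of -0.80 over all 19053 genes. The split over all genes depended on scaling. It was 3162 genes for ovary and 8587 for testis as deposited, and 5779 for ovary and 4777 for testis once that median was set to 0; the 7 genes stayed higher in ovary. The 7 genes summed to 13299 FPKM in ovary and to 21.5 FPKM in testis, a ratio of 620. The sum made up 2.32% of all FPKM in ovary and 0.00382% in testis. The 7 genes were not alike: within ovary the highest was 88.4 times the lowest.

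**Figure D1:**
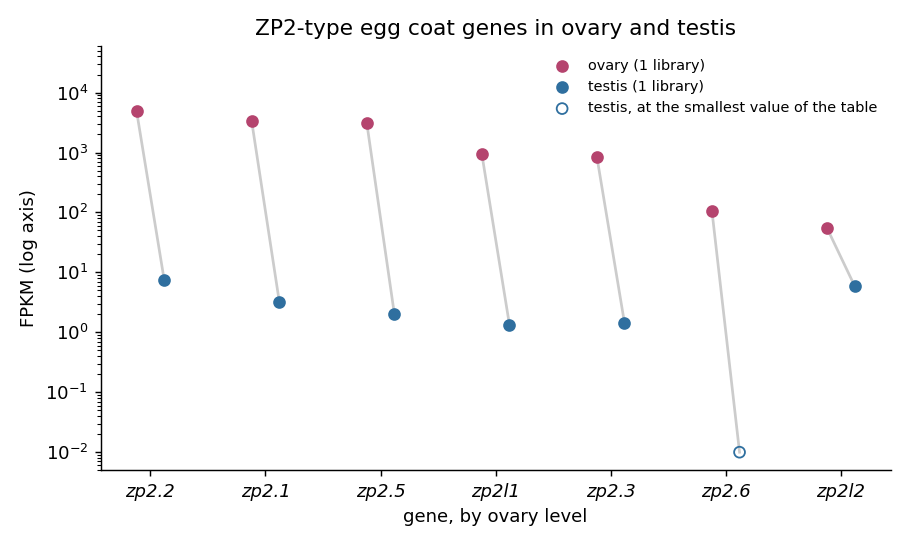
FPKM (log axis) of the 7 ZP2-type genes in the ovary library and the testis library, in order of their ovary level; an open circle is a value at the smallest number of the table, and grey lines join the values of 1 gene. Ovary levels run from 4862 FPKM (zp2.2) to 55.0 FPKM (zp2l2), and testis levels from 7.43 FPKM (zp2.2) to 0.01 FPKM (zp2.6).

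In ovary the genes formed a high group of zp2.2, zp2.1 and zp2.5, a middle pair of zp2l1 and zp2.3, and a low pair of zp2.6 and zp2l2. In the high group, zp2.2 (ENSDARG00000105346) had 4862 FPKM in ovary and 7.43 FPKM in testis, 654 times as much in ovary and a log2(FPKM + 1) ratio of 9.17. It was the second most abundant gene of the ovary library and supplied 0.849% of its FPKM. The gene zp2.1 (ENSDARG00000086352) had 3335 FPKM in ovary and 3.25 FPKM in testis, a ratio of 1026 and a log2 ratio of 9.62. It was the fifth most abundant gene in ovary. The gene zp2.5 (ENSDARG00000086522) had 3139 FPKM in ovary and 2.03 FPKM in testis. Its ratio of 1546 was the largest of the 6 members that were above the smallest value in both libraries, and its log2 ratio of 10.02 was the third largest among the 19053 genes. It was the sixth most abundant gene in ovary, so that 3 of the 6 most abundant ovary genes were copies of zp2.

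The middle pair lay well under these levels in ovary and had similar values to each other in both organs. The gene zp2l1 (ENSDARG00000055415) had 951 FPKM in ovary and 1.35 FPKM in testis, a ratio of 704 and a log2 ratio of 8.66. The gene zp2.3 (ENSDARG00000090237) had 850.3 FPKM in ovary and 1.44 FPKM in testis, a ratio of 590.5 and a log2 ratio of 8.45. They ranked 83 and 93 in ovary.

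The low pair differed in testis more than in ovary. The gene zp2.6 (ENSDARG00000091409) had 107 FPKM in ovary and was listed at the smallest value, 0.01 FPKM, in testis, so no ratio of the 2 values is given. Its log2(FPKM + 1) ratio of 6.74 is set by its ovary level and the added 1. That ratio was 9.92 with 0.1 added and 4.48 with 5 added. The gene zp2l2 (ENSDARG00000004898) had 55.0 FPKM in ovary and 5.95 FPKM in testis, a ratio of 9.24 and a log2 ratio of 3.01. It was the lowest member in ovary and the second highest in testis.

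The order of the genes therefore differed between the organs. From high to low it was zp2.2, zp2.1, zp2.5, zp2l1, zp2.3, zp2.6 and zp2l2 in ovary, and zp2.2, zp2l2, zp2.1, zp2.5, zp2.3, zp2l1 and zp2.6 in testis. Some neighbours in the ovary order were close, with zp2.1 at 1.06 times zp2.5 and zp2l1 at 1.12 times zp2.3; without replicates it is not known whether such steps exceed the spread. The largest steps in ovary were the 7.96-fold one between zp2.3 and zp2.6 and the 3.30-fold one between zp2.5 and zp2l1. In testis the 6 genes above the smallest value spanned 5.50-fold.

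As shares of the 7-gene sum, zp2.2 supplied 36.6% in ovary and 34.6% in testis. The shares of zp2.1 were 25.1% in ovary and 15.1% in testis, and those of zp2.5 were 23.6% in ovary and 9.46% in testis. The largest difference was that of zp2l2, with 0.414% of the sum in ovary and 27.7% in testis. Without zp2l2, the share of zp2.2 was 36.7% in ovary and 47.9% in testis, that of zp2.1 was 25.2% in ovary and 21.0% in testis, and that of zp2.3 was 6.42% in ovary and 9.28% in testis. The testis shares rest on values of a few FPKM.

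**Figure D2:**
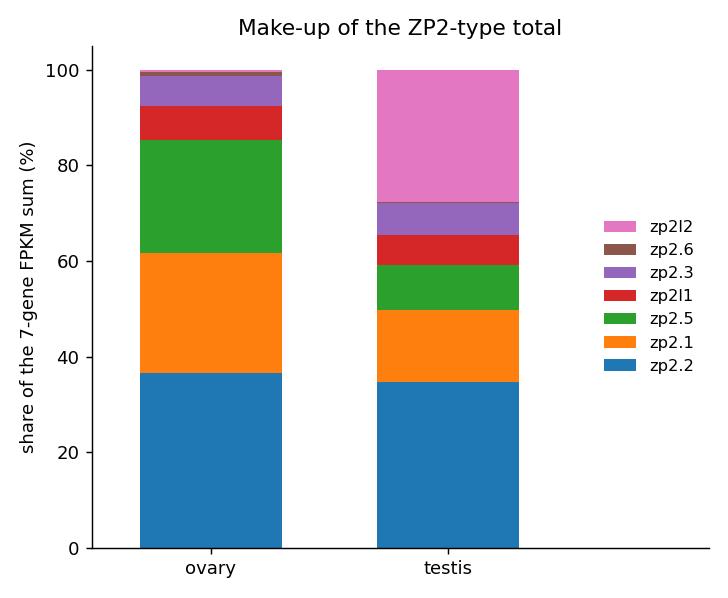
Share of each gene in the summed FPKM of the 7 ZP2-type genes, in ovary (left) and testis (right). The top segment, zp2l2, is 0.414% of the sum in ovary and 27.7% in testis, while the bottom segment, zp2.2, is 36.6% in ovary and 34.6% in testis.

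The testis levels of the genes were set beside those of other genes of like abundance in ovary. As a share of its ovary level, the testis level was 0.0647% for zp2.5, 0.0975% for zp2.1, 0.142% for zp2l1, 0.153% for zp2.2, 0.169% for zp2.3 and 10.8% for zp2l2. Among the 29 other genes within 2-fold of the ovary level of zp2.5, the median testis level was 2.81 FPKM, and 2 of them had a larger log2 ratio. Among the 9 other genes within 2-fold of zp2.2 the median testis level was 2.84 FPKM, and 8 of them had a larger log2 ratio than zp2.2. Among the 3177 genes within 2-fold of zp2l2 in ovary, the median testis level was 28.2 FPKM and the median log2 ratio 0.75, and 190 had a larger ratio than zp2l2. The log2 ratio of zp2l2 was thus the smallest of the 7 but larger than that of most genes near its ovary level. The testis levels of 5 of the 7 genes were below the testis median of 4.71 FPKM over all 24539 genes, with zp2.2 and zp2l2 above it.

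**Figure D3:**
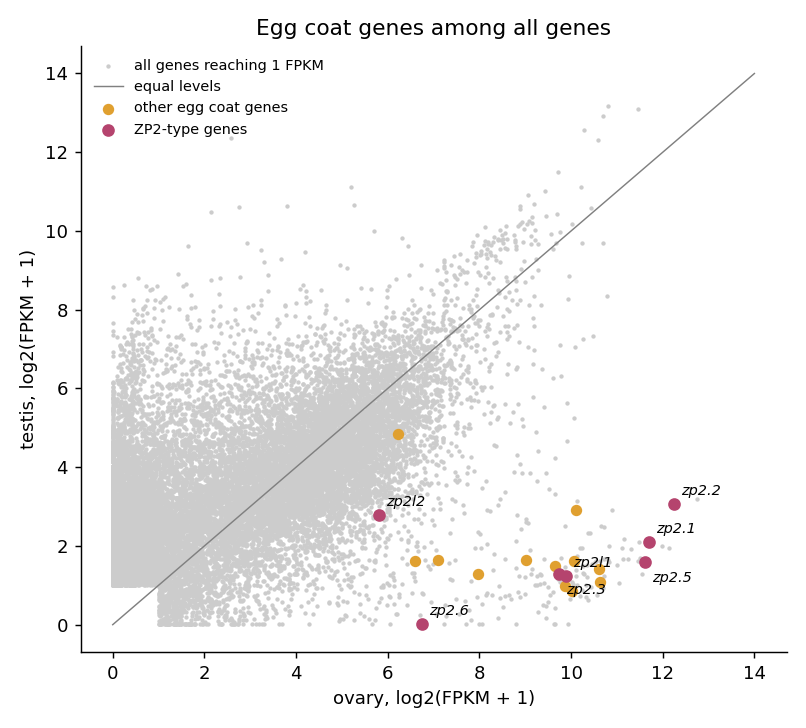
Level of each gene that reached 1 FPKM, as log2(FPKM + 1) in ovary (horizontal) and testis (vertical), with the 7 ZP2-type genes, the 12 other egg coat genes and a line of equal levels. The ZP2-type genes lie under the line, zp2.2 farthest to the right at 4862 FPKM in ovary, zp2l2 nearest to the line and zp2.6 at the bottom with 0.01 FPKM in testis.

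Of the 7 genes, 5 are neighbours. In the gene order of RefSeq on the assembly GRCz12tu, which is not the build of the deposited values, zp2.2, zp2.3, zp2.6, zp2.1 and zp2.5 follow each other with 1 further protein-coding gene among them, and zp2l1 and zp2l2 lie elsewhere, away from the cluster and from each other. The 5 copies held 92.4% of the 7-gene sum in ovary and 66.0% in testis. They summed to 12293 FPKM in ovary and to 14.2 FPKM in testis, a ratio of 868; this sum depends less on how reads were divided among the copies than their separate values do. Levels within the cluster spanned 45.5-fold in ovary and did not follow the gene order. Its first gene, zp2.2, and its last, zp2.1 and zp2.5, were the high ones, with zp2.3 and zp2.6 between them. Copies that are close in sequence share reads, and no label states how the authors' counting divided them, so the order among the 5 copies, and the value of zp2.6 in particular, is less certain than their sum. Reads shared with the further gene of the cluster, or among copies of unequal length, would still move the sum.

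The further gene inside the cluster, between zp2.3 and zp2.6, carries only a clone name, si:zfos-1505d6.3 (ENSDARG00000089966), and was named after its values were seen. It had 796 FPKM in ovary and was listed at 0.01 FPKM in testis, which is the pattern of zp2.6. Its ovary level lay close to that of zp2.3 and made up 0.139% of the ovary total. The table holds 9 genes with at least 100 FPKM in ovary and the smallest value in testis, and these 2 neighbours are among them. The other 7 also carry clone names. On the flanks of the cluster no gene with a matched value reached 100 FPKM in ovary. Of the 8 protein-coding genes on its flanks, 4 on each side, 4 were matched to a value. The nearest matched gene on one side, actr10, which encodes an actin-related subunit of dynactin, had 36.7 FPKM in ovary and 62.4 FPKM in testis. On the other side cipcb had 5.75 FPKM in ovary and 4.64 in testis, znf410 had 20.5 in ovary and 46.3 in testis, and entpd5b had 0.65 in ovary and 24.9 in testis. The last 2 were higher in testis by the rule, and the other 2 were within 2-fold. Over all 19053 genes, 45.1% were higher in testis and 16.6% higher in ovary. The gene entpd5b was under 1 FPKM in ovary and could not have been called higher there. With the median log2 ratio of all genes set to 0, znf410 came within 2-fold, at -0.34, and cipcb reached 2-fold towards ovary, at 1.06.

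**Figure D4:**
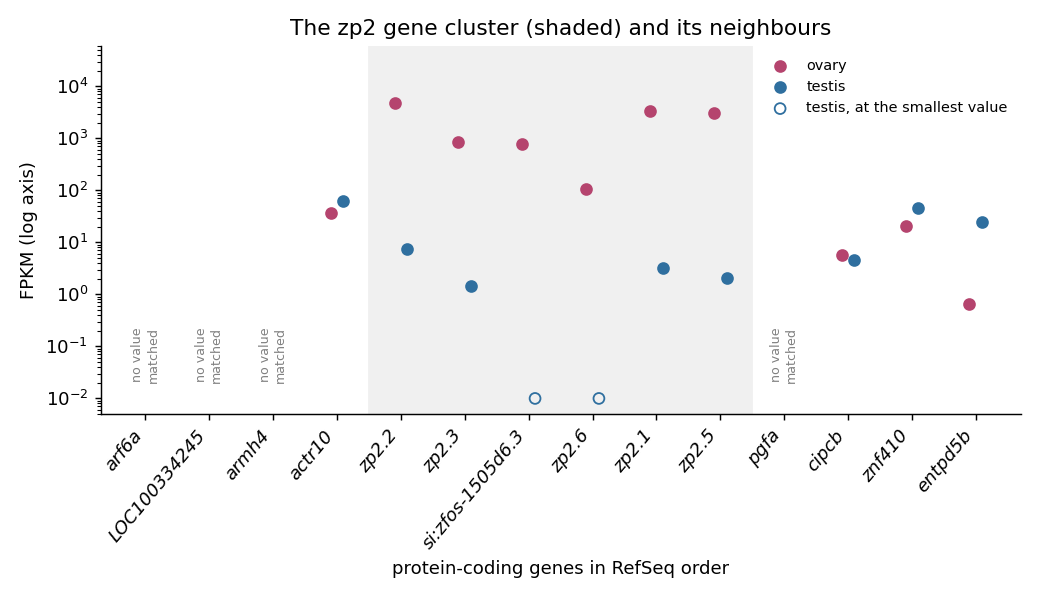
FPKM (log axis) in ovary and testis of the protein-coding genes of the zp2 cluster (shaded) and 4 on each side, in RefSeq order and not to distance; genes whose symbol was not matched to a single value are marked. Within the shading ovary levels run from 107 FPKM (zp2.6) to 4862 FPKM (zp2.2), and the 4 flanking genes with values run from 0.65 to 36.7 FPKM in ovary.

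Next to zp2l1, 5 of 8 flanking protein-coding genes had values, from 0.07 to 26.1 FPKM in ovary. Of these, 3 were higher in testis and none was higher in ovary, against 45.1% and 16.6% of all 19053 genes. Among the 3, si:dkey-192g7.3 (0.16 FPKM) and mab21l3 (0.07 FPKM) were under 1 FPKM in ovary and could not have been called higher there. With the median of all genes set to 0, si:dkey-192g7.3 came within 2-fold, at -0.94, while rcan1a (-1.21) and mab21l3 (-1.04) did not. Next to zp2l2, 1 of 8 flanking genes had a value, so its surroundings could not be described. That gene, cyp20a1, of the cytochrome P450 family, overlaps zp2l2 in the same RefSeq order. It had 28.2 FPKM in ovary and 25.7 FPKM in testis, a log2 ratio of 0.13 as deposited and 1.07 with the trimmed mean. Whether reads of the overlap entered the 55.0 FPKM of zp2l2 in ovary or its 5.95 FPKM in testis was not tested, and no label states whether counting used the strand.

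The other known genes of the egg coat shared the direction of the ZP2 type, as far as they were measured. Of 17 symbols listed for them, 12 were measured, and all 12 were higher in ovary, against 16.6% of all 19053 genes. The median of their log2 ratios was 7.76. They are relatives of the ZP3 and ZPAX types, whose proteins join those of the ZP2 type in the coat. Their sum was 9142 FPKM in ovary and 50.4 FPKM in testis, a ratio of 181. The ZP2 type made up 59.3% of the FPKM of all 19 genes in ovary and 29.9% in testis. None of the 12 measured genes of the other types reached the level of the 3 high zp2 copies. The highest were zp3a.1 (1585 FPKM in ovary, 1.12 in testis) and zp3e (1551 in ovary, 1.67 in testis). At the other end zp3d.2, at 74.1 FPKM in ovary and 27.6 in testis, had the smallest ratio, 2.68, and resembled zp2l2 in that it was low in ovary for the family. Between them lay zp3b (1100 FPKM in ovary, 6.55 in testis), zpax1 (1075 in ovary, 2.05 in testis), zp3a.2 (1031 in ovary, 0.81 in testis), zpax4 (929 in ovary, 0.97 in testis), zp3f.1 (798 in ovary, 1.83 in testis), zpcx (519.5 in ovary, 2.14 in testis), zp3c (248 in ovary, 1.45 in testis), zp3f.2 (135 in ovary, 2.12 in testis) and zp3d.1 (95.5 in ovary, 2.06 in testis). Of the 76 genes at or over 1000 FPKM in ovary, 3 were of the ZP2 type and 5 were among the 12 measured genes of the other types. Named after their values were seen, zpd had 78.7 FPKM in ovary and 2.26 in testis and zpax2 had 72.9 in ovary and 0.20 in testis.

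Genes with a ZP domain that work outside the egg were low in both organs. Of 15 symbols listed, 6 were measured and 4 reached 1 FPKM. None of the 4 was 2-fold apart on the log2(FPKM + 1) scale. Over all 19053 genes, 16.6% were higher in ovary and 45.1% higher in testis. The list's median log2 ratio was -0.25. It turned positive under 2 rescalings (0.55 with the median of all genes set to 0, and 0.26 with a trimmed mean). The uromodulin gene umod had 3.92 FPKM in ovary and 2.65 in testis, and the tectorin genes TECTB and TECTA, known from the inner ear, had 2.48 and 0.24 FPKM in ovary and 1.59 and 1.34 in testis. The gene of the co-receptor TGFBR3 had 0.13 FPKM in ovary and 1.19 in testis. At such levels the added 1 makes a ratio look smaller than it is. The calls changed with it and with the scaling: 2 of the 4 were higher in testis with 0.1 added, and 2 were higher in ovary with the median of all genes set to 0.

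A mixed list for oocyte transcription, which also holds broadly expressed genes, did not share one direction. In ovary its levels of 2.72 to 376 FPKM were below those of the 5 most abundant ZP2-type genes. Of 9 measured genes, 4 were higher in ovary, namely figla, pou5f3, nanog and foxl2l. Another 3 were higher in testis, namely YBX1, tcf3a and TCF12, and 2 were within 2-fold. The shares over all 19053 genes were 16.6% for ovary and 45.1% for testis. The genes pou5f3 and foxl2l were under 1 FPKM in testis and could not have been called higher there. The median of the list's log2 ratios was 0.12. The 3 higher in testis came within 2-fold with the median of all genes set to 0, where the list's median was 0.92, and with the trimmed mean. The gene figla encodes a helix-loop-helix factor that in mouse is needed for expression of the zona genes. It had 36.7 FPKM in ovary and 1.30 FPKM in testis, a ratio of 28.2. Its level in testis was 3.55% of that in ovary. This lay above the 0.0647% to 0.169% of the 5 ZP2-type genes of the high group and the middle pair. It lay below the 10.8% of zp2l2. In testis, however, figla had less than each of those 5 genes (1.35 to 7.43 FPKM), and its ovary level was lower too. The genes of the broadly expressed partners of such factors were not higher in ovary. The gene tcf3a had 4.6 FPKM in ovary and 10.3 in testis, tcf3b had 4.57 in ovary and 4.12 in testis, and TCF12 had 2.72 in ovary and 9.91 in testis. Among the rest, nanog (318 FPKM in ovary, 22.6 in testis) and pou5f3 (56.6 in ovary, 0.95 in testis) encode factors that the egg passes to the embryo, foxl2l had 4.29 FPKM in ovary and 0.49 in testis, and taf4b, which encodes a subunit of a general transcription factor, had 12.4 in ovary and 11.8 in testis. The gene YBX1, for an RNA-binding protein, had 376 FPKM in ovary and 980.4 in testis.

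Of 8 measured growth factor genes of the oocyte and its surroundings, 7 reached 1 FPKM. Among these, 4 were higher in ovary, 2 higher in testis and 1 within 2-fold, against 16.6% higher in ovary and 45.1% higher in testis over all 19053 genes. The median of their log2 ratios was 1.12, and it was 3.06 with 0.1 added and 0.32 with 5 added. Of the 7, kitlga (0.29 FPKM in ovary) could not have been called higher in ovary, nor ndr2 (0.07 FPKM in testis) higher in testis. The gene gdf3, a maternal ligand of the TGF-beta family, had 479 FPKM in ovary and 4.41 in testis, and bmp15, an oocyte-made ligand of the same family, had 93.6 in ovary and 1.49 in testis. The gene igf3, a gonadal insulin-like growth factor of fish, had 1.15 FPKM in ovary and 40.4 in testis, and GDF9 had 26.6 in ovary and 1.27 in testis.

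Coat proteins enter the secretory route. Of 25 genes listed for it that reached 1 FPKM, 11 were higher in ovary and none higher in testis. The shares over all 19053 genes were 16.6% for ovary and 45.1% for testis. The median of the list's log2 ratios was 0.73. The median was far below the 8.66 of the ZP2-type genes, although the largest ratio of the list, 13.4 for P4HB, exceeded the 9.24 of zp2l2. With the median of all genes set to 0, 18 of the 25 were higher in ovary, against 5779 of all 19053 genes, and the list's median was 1.53. The chaperone genes of the endoplasmic reticulum HSPA5 and HSP90B1 had 1229 and 776 FPKM in ovary and 151 and 75.5 FPKM in testis. P4HB, for a protein disulphide isomerase, which forms the disulphide bonds of secreted proteins, had 488 FPKM in ovary and 36.5 in testis. SEC61B and SEC61G, subunits of the channel into the endoplasmic reticulum, had 570.4 and 401 FPKM in ovary and 220.2 and 160.4 FPKM in testis. Genes of the enzyme complex that adds sugar chains, among them RPN1 (149 FPKM in ovary, 96.3 in testis) and STT3A (104 in ovary, 79.9 in testis), were within 2-fold, and so were those of the coats of transport vesicles, such as SEC13 (79.8 in ovary, 112 in testis). After the rescaling to a median of 0, RPN1 (1.42) and STT3A (1.18) passed 2-fold towards ovary. P4HB, RPN1, STT3A and SEC13 were named with their values known.

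A mixed list of 18 symbols for egg activation and hardening had 10 measured genes, of which 6 reached 1 FPKM. Of these, 3 were higher in ovary and 3 in testis, against 16.6% and 45.1% of all 19053 genes. The median of their log2 ratios was 0.04. It was -0.22 with 0.1 added in place of 1, and -0.15 with each library rescaled to the same total. It was 0.33 with 5 added and 0.84 with the median of all genes set to 0. None of the 3 was still higher in testis under that last setting. Those higher in ovary were ca15b, a carbonic anhydrase gene (649 FPKM in ovary, 1.41 in testis), ovch1, a gene of the ovochymase family of proteases (68.9 in ovary, 0.43 in testis), and SPNS1, a gene of lysosomal transport (22.3 in ovary, 8.96 in testis). The protease gene npsn had 1.57 FPKM in ovary and 5.52 in testis, and the other 2 higher in testis were transglutaminase genes. Of these, tgm2l had 0.48 FPKM in ovary and 2.85 in testis, and tgm5l was listed at 0.01 in ovary and had 1.22 in testis. Neither reached 1 FPKM in ovary, so they could not have been called higher there. In the same way ovch1 was under 1 FPKM in testis and could not have been called higher in testis. Of 12 symbols for the sperm's side of fertilisation, 3 were measured, and all 3 were higher in testis, against 45.1% of all 19053 genes. They were dcst1 (0.31 FPKM in ovary, 81.0 in testis), DCST2 (0.16 in ovary, 64.8 in testis) and tmem81 (0.16 in ovary, 39.1 in testis), with a median of -5.83. None of the 3 reached 1 FPKM in ovary, so none could have been called higher there. The levels of the unmatched symbols are unknown.

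Markers of liver, the site of coat synthesis in some other fish, were low in ovary. All measured ones but RBP4 were below the ovary median of 1.23 FPKM over all 24539 genes. The 18 measured liver genes summed to 6.55 FPKM in ovary, with a range of 0.01 to 2.92, and to 235 FPKM in testis, with a range of 0.10 to 121. The 14 that reached 1 FPKM were all higher in testis, against 45.1% of all 19053 genes. Of the 14, only RBP4 (2.92 FPKM) and tfa (1.09 FPKM) reached 1 FPKM in ovary. The others met the minimum only through testis and could not have been called higher in ovary, so the filter itself favoured this count. The number higher in testis was 8 with 5 added and 11 with the median of all genes set to 0. Over all genes, 4375 and 4777 were higher in testis under these 2 settings. The highest by mean level was RBP4, the retinol carrier gene, with 2.92 FPKM in ovary and 121 in testis, followed by apoa1b (0.33 in ovary, 24.6 in testis), fabp10a (0.39 in ovary, 19.7 in testis) and apoa2 (0.15 in ovary, 15.5 in testis). The measured follicle cell markers, for the somatic cells around the oocyte, were also low in ovary. Of 14 symbols listed, 7 were measured, and cyp19a1a, foxl2a and foxl2b were among those without a matched value. The levels of the unmatched markers are unknown. The 7 measured ones summed to 8.36 FPKM in ovary and 167 FPKM in testis. Of the 6 that reached 1 FPKM, 5 were higher in testis, against 45.1% of all 19053 genes. Among these 5 only inha reached 1 FPKM in ovary, so the others could not have been called higher in ovary. The number higher in testis was 3 with 5 added and 4 with the median of all genes set to 0. Examples of the measured markers are inha (3.06 FPKM in ovary, 137 in testis), INHBB (0.09 in ovary, 11.0 in testis), RUNX3 (0.28 in ovary, 10.1 in testis) and hsd17b1 (4.72 in ovary, 2.02 in testis). The last was within 2-fold by the rule at 0.92, but was higher in ovary with 0.1 added in place of 1 (1.18) and with the median of all genes set to 0 (1.72). Several of these are also expressed by somatic cells of the testis.

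**Figure D5:**
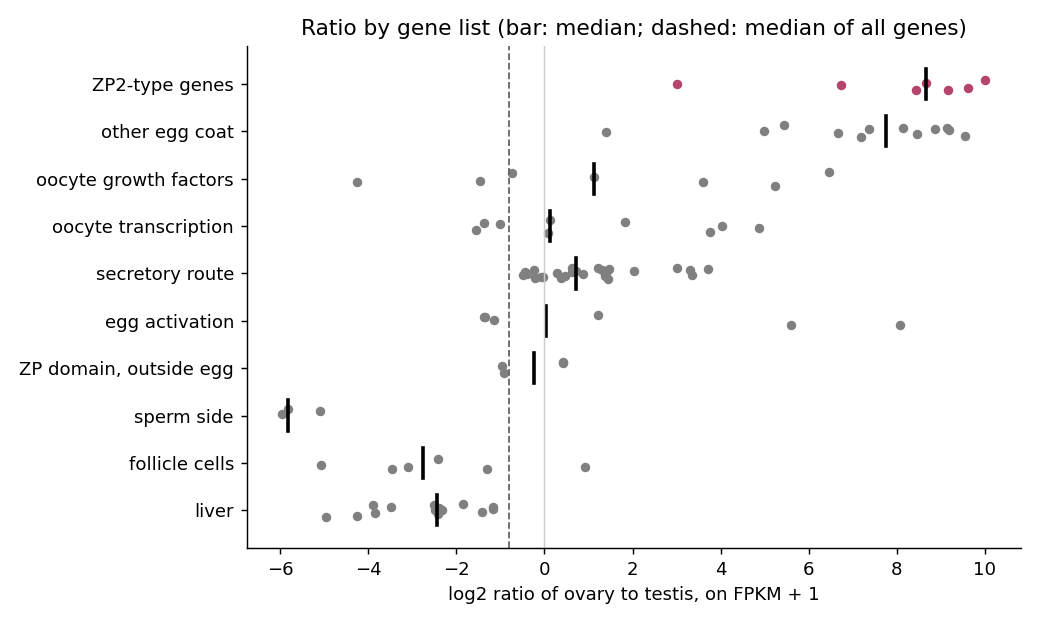
Log2 ratio of ovary to testis on the FPKM + 1 scale for each gene that reached 1 FPKM, by gene list; the bar is the list's median and the dashed line the median of all genes, -0.80. The 7 ZP2-type genes have a median of 8.66 and the 12 other egg coat genes 7.76. Both lie above the medians of the other 8 lists drawn, the highest of which is 1.12. The 5 measured oocyte markers are not drawn and have a median of 5.25.

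Genes with the most similar values were sought by the distance between log2(FPKM + 1) values over the 2 libraries, among genes with an informative symbol. For zp2.2, zp2.1 and zp2.5 the nearest 2 were the same, tmsb5, a gene of the actin-binding beta-thymosins (2285 FPKM in ovary, 3.51 in testis), and h1m, the linker histone gene of the egg (2230 in ovary, 2.18 in testis), at distances of 0.50 to 1.80. For zp2l1 they were the claudin gene cldng (939 FPKM in ovary, 1.75 in testis) and ENSDARG00000086859, 1 of 3 identifiers with the symbol QDPR (1055 in ovary, 1.05 in testis), and for zp2.3 they were cldng and zp3f.1. For zp2.6 they were dtx3la (104 in ovary, 0.18 in testis) and lectin (154 in ovary, 0.16 in testis). For zp2l2 they were spink2.1 (54.2 FPKM in ovary, 6.0 in testis) and SEPSECS (53.4 in ovary, 5.91 in testis), at distances of 0.02 and 0.04. With 2 libraries, such likeness rests on 2 values per gene.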

How the data were processed

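Testis and ovary RNA was extracted with Trizol and sequenced on the BGISEQ-500, per the labels' protocols. The authors deposited FPKM for both organs, per the file headers; HISAT, Bowtie2, RSEM and the build GRCz10 are named in the submitters' processing notes, without roles or versions. For strand handling and annotation, the sources used here state nothing; no read counts were used, so depth is unknown. Gene symbols named 21881 of 24539 identifiers; list symbols on several identifiers were left out. RefSeq (GRCz12tu) gave only gene order.

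Ratios are log2 of (FPKM + 1) in ovary over (FPKM + 1) in testis, computed with Python 3.11.15 and pandas 2.3.3. The rule of size and the trimmed mean were checked on simulated data. Changes were planted there only in genes with higher testis levels than the members, so the check does not cover testis values as low as theirs. The added 1 understates ratios of low genes. The members and lists were chosen with earlier results of these data known. Named genes are the members, the 2 nearest genes of each, all measured genes of the other egg coat and oocyte transcription lists, and the 4 highest by mean of each other list. Genes outside this rule are the organ markers, the flanking genes and those named to account for a count, or said to be named with their values known. The comparison of member sequences and the summing of copies by protein identity were not run.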

Additional observations from a re-analysis of the deposited data

How the results depend on the processing

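The 7 ZP2-type genes stayed higher in ovary under pseudocounts of 0.1 and 5, no minimum, a minimum of 5 FPKM, a 4-fold rule and 4 other scalings. Their median log2 ratio of 8.66 was 9.36 with a pseudocount of 0.1, 7.23 with 5, 9.46 with the median of all genes set to 0, 9.41 with scaling by a trimmed mean (-0.98 on the log2 scale), and 8.77 with totals that leave out the top 100 genes of each library. Chosen after seeing the data, rescaling each library to the same total gave 8.93, leaving out zp2.6 or zp2l2 gave 8.92, and summing the 5 neighbouring copies left 3 features, all 3 higher in ovary. Set against totals without those top genes, which include 5 of the members, the 7-gene sum came to 3.44% in ovary and 0.00505% in testis; this is a ratio to the remaining genes and not a share. Over all genes, 3162 were higher in ovary and 8587 in testis; the numbers were 1180 in ovary and 4106 in testis with the 4-fold rule, 5779 in ovary and 4777 in testis with the median set to 0, and 6022 in ovary and 5686 in testis with the trimmed mean. Those higher in testis numbered 4375 with a pseudocount of 5 and 5331 with a minimum of 5 FPKM. The list of ZP domain genes outside the egg changed sign with the median set to 0 (0.55) and the trimmed mean (0.26), and that of egg activation with a pseudocount of 0.1 (-0.22) and the same total for each library (-0.15). The cause of these changes was not tested. No paired analysis was possible because each organ has 1 library, and for the same reason no replicate could be left out. Summing copies by protein identity was not run.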
